A study of Drosophila melanogaster with 9 samples.

Results

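The large subunit of the cytoplasmic ribosome joins ribosomal RNA and a fixed set of RpL proteins, together with the acidic stalk proteins RpLP0, RpLP1 and RpLP2. It carries the catalytic centre that links amino acids and the tunnel through which the new protein leaves. Each protein is normally present in a single copy per ribosome apart from the stalk proteins RpLP1 and RpLP2. Loss of one gene copy of many of the RpL and RpLP genes gives the Minute phenotype of flies, with slow growth and short, thin bristles. The 44 genes described here were taken from a list of identifiers that names cytoplasmic RpL and RpLP genes, and all 44 were found among the 15168 genes of the deposited gene table. The list was set by identifier and not by a measured value, but it was chosen with earlier results of these data known. Of these genes, 41 are counted here as euchromatic and 3 as lying in pericentromeric heterochromatin, the compact chromatin next to the centromeres. The 3 are RpL5 (CG17489) on arm 2L, RpL15 (CG17420) on arm 3L and RpL38 (CG18001) on arm 2R. Among the 41 are RpL10 and RpL21, which the study's own table of heterochromatic genes holds.

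The study asked whether heterochromatic genes keep their expression when heterochromatin proteins are depleted. Drosophila S2 cells, a line of hemocyte lineage derived from embryos, received 1 µg of double-stranded RNA and were kept for 3 days, with 3 replicates in each group. The double-stranded RNA was directed against HP1a, a protein that binds methylated histone H3 in heterochromatin, against Su(var)3-9, the enzyme that places that methylation, or, in the control, against GFP, which these cells lack. Total RNA was sequenced from all 9 libraries.

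The deposited values are TPM, a transcript abundance that divides reads by gene length and sums to the same total in every library. TPM keep no sequencing depth, so depth is unknown here and no counting interval is given. Genes with CG identifiers, mostly protein-coding, held between 9.70% and 15.3% of the TPM of a library. Each library was therefore rescaled to a total of 1000000 over its CG genes, and every level below is such a rescaled TPM. Nothing in the labels says that replicates came from separate cultures, and the p-values measure the spread between these samples.

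The RNA of the targeted genes was not lower in libraries labelled with their depletion, and their proteins were not analysed here. The HP1a gene, Su(var)205, had 3789, 2796 and 2849 rescaled TPM in libraries labelled HP1a RNAi, against 596, 495 and 526 in control libraries, a log2 difference of 2.53 (SE 0.15, limma adjusted p = 8.90e-04). CG6476, the identifier of Su(var)3-9, whose locus overlaps that of eIF2gamma, had 3923, 2483 and 3251 in libraries labelled Su(var)3-9 RNAi, against 240.3, 219 and 240.2 in control libraries, a log2 difference of 3.76 (SE 0.18, limma adjusted p = 0.00134). All directions below are therefore those of libraries as labelled. Of the markers of the hemocyte lineage, srp, Pxn and crq had group means from 50.8 to 135.4 rescaled TPM, Col4a1 and vkg from 12.5 to 22.4, Hml from 4.63 to 7.65 and NimC1 at most 0.69. The neuronal, germline, ovarian, muscle and fat body markers that were matched had group means of at most 8.17.

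Control replicate 3 stood apart from the other 8 libraries, over the large subunit genes and over other abundant genes. In it 26 of the 44 genes were above every other library and 5 were below, namely RpL39, RpL38, RpL29, RpL21 and RpL5. Over all 6573 tested genes, 18.6% were above and 21.6% below in this library. Other libraries also lay at an edge: control replicate 1 was below every other library for 18 of the 44 genes (14.1% of all tested genes). Su(var)3-9 RNAi replicate 3 was below for 11 (12.2%), and Su(var)3-9 RNAi replicate 1 was above for 9 (7.26%). Fits without control replicate 3 rest on replicates 1 and 2 of the control. The SD of the 44 genes' log2 deviations from the mean of the other 8 libraries was 0.41 in control replicate 3, against 0.10 to 0.18 in the others. Over 70 other CG genes, outside the ribosomal proteins and at or above the lowest mean level of the 44, it was 0.81 in control replicate 3, against 0.32 to 0.50 in the others. These 70 include the targeted genes Su(var)205 and CG6476, so their differences between groups enter the SD of every library. The rank order of the 44 levels had a Spearman coefficient of 0.859 to 0.895 between control replicate 3 and each other library, and of 0.974 to 0.994 in the 28 pairs without it, a description over genes that share their libraries. Counts and medians against the control are given below with and without this library, as are the values of single genes that it moves.

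The lowest deviations in control replicate 3 were those of the shortest genes. RpL39, at 289 bases the shortest of the 44 genes, was 1.38 log2 units under the mean of the other libraries in it (a deviation of -1.38), RpL38 at 402 bases had a deviation of -1.20, and RpL29 at 326 bases one of -0.50. Among the 13 genes over 800 bases, 10 were above every other library, with RpL4 at 0.59 and RpL7A at 0.58. Over the 44 genes the correlation of the deviation with log2 length was 0.54, while in the other 8 libraries, where deviations were smaller, it lay between -0.60 and 0.50. CG genes in general did not show this: those of up to 350 bases had a median deviation of 0.13 (47 genes), and those above that and up to 450 bases one of -0.084 (69 genes). The small subunit genes moved in part with the large subunit ones, with 20 of 39 above and 2 below every other library. The part of transcript length in these values was not tested.

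**Figure D1:**
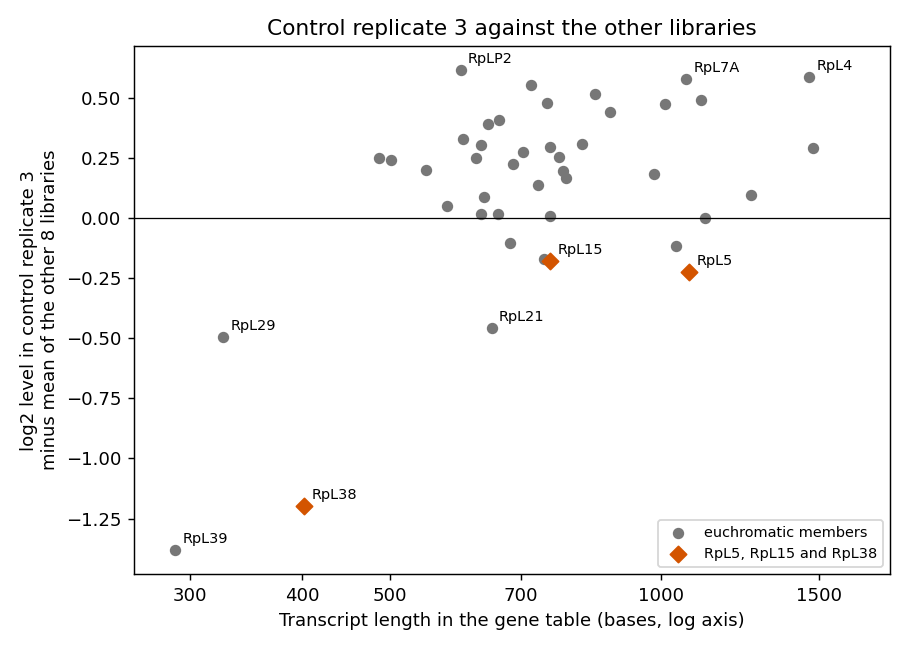
Each point is 1 large subunit gene, for 43 of the 44. The vertical axis is its log2 rescaled TPM in control replicate 3 minus the mean of the other 8 libraries, and the horizontal axis is transcript length in bases on a log axis. The shortest genes, RpL39 (-1.38), RpL38 (-1.20) and RpL29 (-0.50), lie lowest, and most genes over 800 bases lie above 0.

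The 44 genes were among the most abundant CG genes of S2 cells in every group. Together they held 20.5%, 20.7% and 20.8% of the CG TPM in libraries labelled HP1a RNAi (mean 20.7% ± 0.167, SD, n = 3). In those labelled Su(var)3-9 RNAi they held 22.9%, 21.5% and 20.1% (21.5% ± 1.35), and in control libraries 19.7%, 20.1% and 20.3% (20.02% ± 0.296). Every library labelled HP1a RNAi was above every control library, by less than 1 percentage point between the nearest pair, while those labelled Su(var)3-9 RNAi overlapped the control. Without RpL39 the shares were 17.4% ± 0.0747 in libraries labelled HP1a RNAi, 18.2% ± 0.986 in those labelled Su(var)3-9 RNAi and 17.8% ± 1.09 in the control, and the groups overlapped.

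Levels differed 22.3-fold between the highest and the lowest gene in the control, although 42 of the 44 group means lay between 1000 and 10000 rescaled TPM, with a median of 3602. RpL39 (CG3997), whose protein lines the exit tunnel, stood 2.46-fold above the next gene. It had 30645, 33843 and 33711 rescaled TPM in libraries labelled HP1a RNAi, 37263.5, 31892 and 29799 in those labelled Su(var)3-9 RNAi, and 26019, 27523 and 11956 in control libraries. Below it the order was close. RpL35 (CG4111), at the rim of the tunnel, had 8977, 8650.2 and 8720.5 in libraries labelled HP1a RNAi, 9037, 9175 and 8707 in those labelled Su(var)3-9 RNAi and 8554, 8682 and 9370.2 in the control. RpL35 was among the steadiest genes, and the next ones varied more. RpL29 (CG10071) had 7935, 9837 and 9439 in libraries labelled HP1a RNAi, 10028, 9048 and 9804 in those labelled Su(var)3-9 RNAi and 10542, 8313 and 6613 in the control. RpL12 (CG3195), which sits at the base of the stalk, had 6509.8, 6485 and 6784 in libraries labelled HP1a RNAi, 8107, 7376 and 6861 in those labelled Su(var)3-9 RNAi and 7224, 7030.3 and 8682 in the control. Libraries labelled HP1a RNAi were below all others for RpL12, while the groups overlapped for RpL35 and RpL29. The control means of the genes ranked 2 to 5 (RpL35, RpL29, RpL12 and RpL5) were 8869, 8489, 7645 and 7525, and the ranges of neighbouring genes over the control libraries overlapped.

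At the other end were RpL28, RpL3, RpL35A, RpL22 and RpL23A. RpL3, which reaches the catalytic centre, averaged 1511 ± 159 in libraries labelled HP1a RNAi, 1498 ± 98.2 in those labelled Su(var)3-9 RNAi and 1592 ± 269 in the control (SD, n = 3 each). RpL28 averaged 1539 ± 98.5, 1483 ± 121 and 1632 ± 196 in the same order of groups. RpL22 averaged 955 ± 131 in libraries labelled HP1a RNAi, 992 ± 32.7 in those labelled Su(var)3-9 RNAi and 1071 ± 309 in the control. RpL23A, which forms the docking site at the tunnel exit, was the lowest gene with a control mean of 979 ± 331, and its control levels overlapped those of RpL22.

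**Figure D2:**
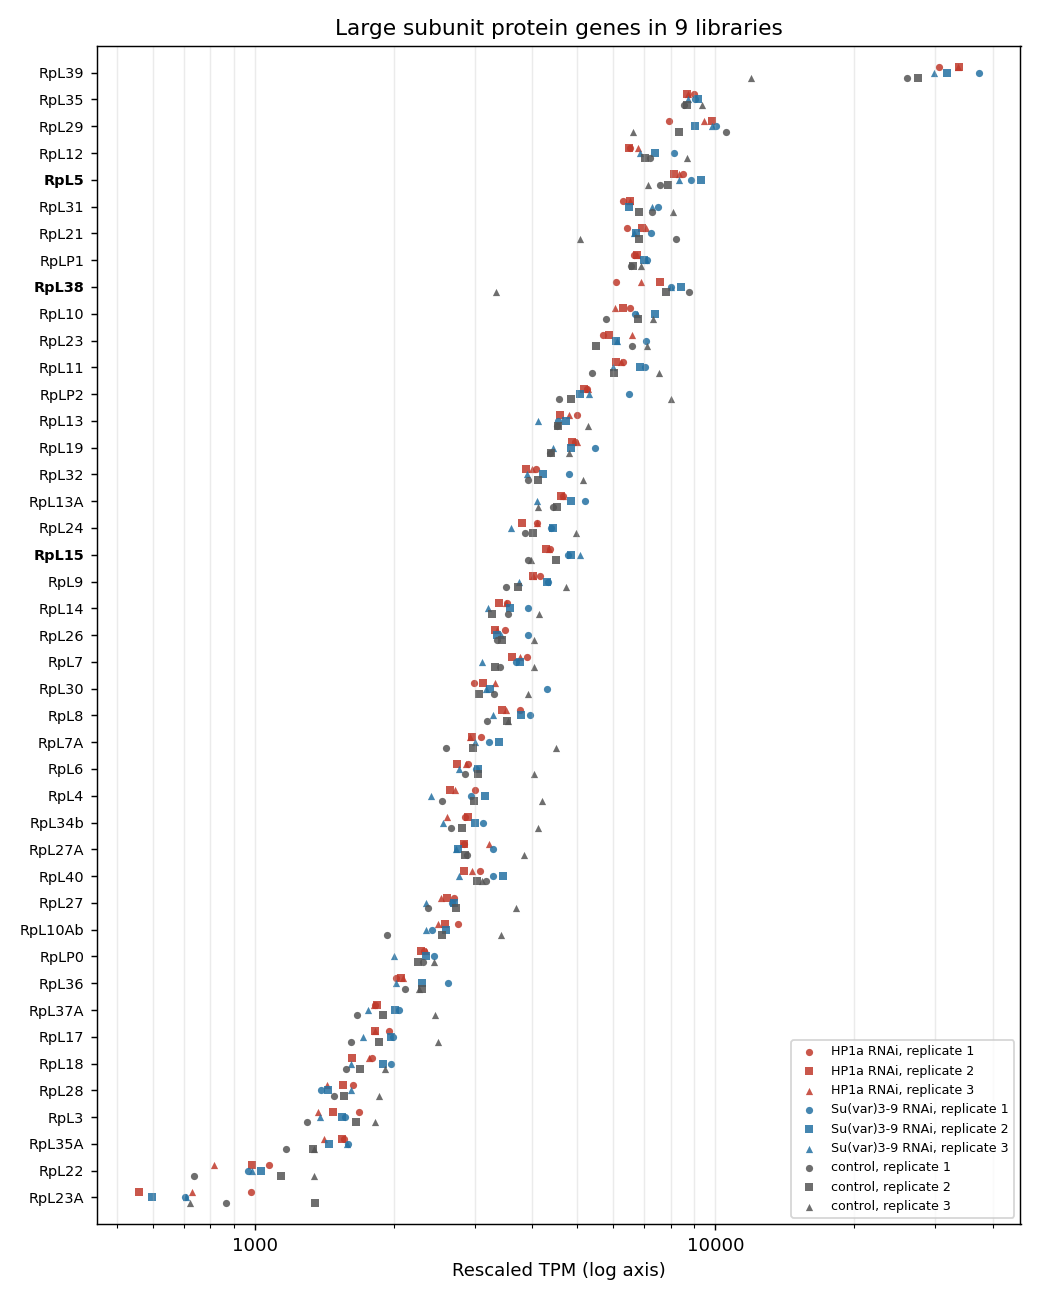
Rescaled TPM (log axis) of 43 of the 44 genes in the 9 libraries, 1 row per gene in order of the control mean. Colours are the groups, point shapes the replicates, and the 3 heterochromatic genes are in bold. Points of most genes lie close together. Control replicate 3 (grey triangles) is far left for RpL39, RpL38 and RpL21, and control replicate 2 is far right for RpL23A.

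The genes were steady across libraries. The coefficient of variation over the 9 libraries had a median of 9.98% for the 44 genes and 15.4% for all 6573 tested genes, and without control replicate 3 the medians were 7.53% and 13.8%. The steadiest were RpLP1 (2.94%) and RpL35 (3.12%), and the most variable were RpL23A (30.3%), RpL39 (25.0%) and RpL38 (23.0%). RpL23A kept its spread without control replicate 3 (31.7%), whereas RpL39 then had 11.6% and RpL38 11.1%. The 70 other CG genes at or above the lowest mean level of the 44 had a larger SD of log2 deviations from the other 8 libraries in every library. It was 0.32 to 0.81, against 0.10 to 0.41 for the 44. Those 70 include Su(var)205 and CG6476, which reach that level only in libraries labelled with their own depletion. Their group differences enter the larger SD, which was not computed without these targeted genes.

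No large subunit gene passed the test in any of the 3 comparisons. With limma on log2(rescaled TPM + 1) and Benjamini-Hochberg adjustment over all 6573 tested genes, 0 of 44 were called between libraries labelled HP1a RNAi and the control, where 0.487% of all genes were called (0.152% higher and 0.335% lower). The count was also 0 of 44 for libraries labelled Su(var)3-9 RNAi against the control (0.122% of all genes, 0.0152% higher and 0.106% lower) and for those labelled HP1a RNAi against those labelled Su(var)3-9 RNAi (0.0761%, of which 0.0609% higher and 0.0152% lower). At an unadjusted p under 0.05 the count was again 0 of 44 in each comparison, where 14.0%, 9.51% and 7.42% of all tested genes passed. The smallest adjusted p among the 44 was 0.403, 0.560 and 0.711 in these comparisons. A background under 1% corresponds to less than 1 call among 44 genes, so the adjusted counts alone do not set these genes apart from the rest.

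The differences were small as well as short of the threshold. Between libraries labelled HP1a RNAi and the control the median log2 difference of the 44 genes was -0.067, against 0.041 over all tested genes, and 38 of the 44 were within 0.2 log2 units of 0. Between libraries labelled Su(var)3-9 RNAi and the control the median was -0.014, against -0.017, and 37 were within 0.2. Between libraries labelled HP1a RNAi and those labelled Su(var)3-9 RNAi it was -0.047, against 0.063, and 43 were within 0.2. Every pair of these comparisons shares a group of libraries.

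The precision limited what could be seen. The median standard error of the 44 differences was 0.15, 0.19 and 0.11 log2 units in the 3 comparisons. The 95% interval of the difference excluded a 2-fold change in either direction for 41, 41 and 44 of the 44 genes. It lay within 0.5 log2 units, or 1.41-fold, of no change for 28, 13 and 40 genes. With control replicate 3 left out, 0 of 44 were still called in both comparisons with the control, where 28 and 8 of all 6573 genes were. The medians were then 0.033 and 0.073 against all-gene medians of 0.030 and -0.025, and 38 and 26 genes had intervals within 0.5 log2 units. An unadjusted p under 0.05 was then reached by RpL35A and RpL19 in libraries labelled HP1a RNAi and by RpL35A and RpL23A in those labelled Su(var)3-9 RNAi, with limma adjusted p from 0.226 to 0.519. With all libraries, 14.0% and 9.51% of all tested genes reached that unadjusted limma p in these comparisons. The share in the fits without control replicate 3 is not given here, so these genes are not read as set apart.

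**Figure D3:**
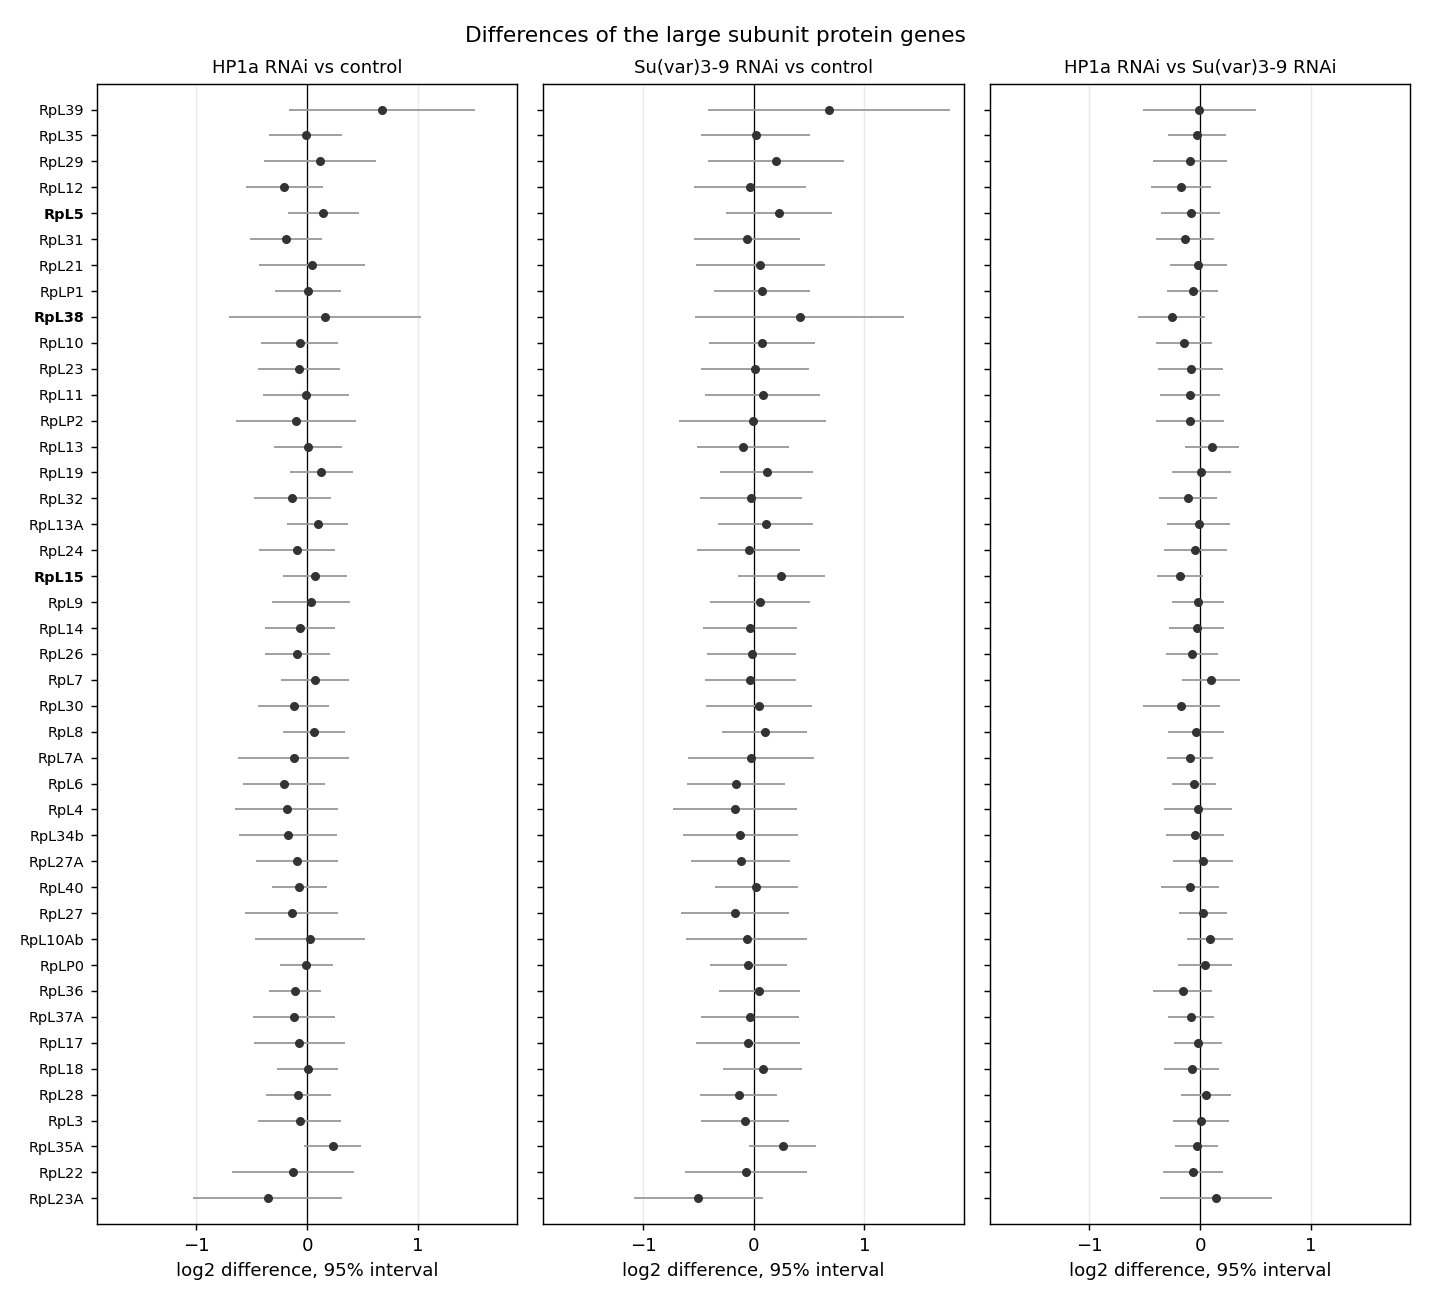
Log2 differences with 95% intervals (limma) of 43 of the 44 genes in the 3 comparisons, 1 row per gene in the order of the control mean, with the 3 heterochromatic genes in bold. A positive value means higher in the first-named group. No gene was called. The widest intervals against the control are those of RpL39 and RpL38.

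Genes whose groups did not overlap were counted, and the share over all tested genes is given beside each count. In libraries labelled HP1a RNAi, 5 of 44 genes were above every control library (RpL5, RpL13A, RpL19, RpL35A and RpL39), where 13.0% of all tested genes were, and 3 were below (RpL12, RpL31 and RpL36), where 8.43% were. In libraries labelled Su(var)3-9 RNAi, 5 were above every control library (RpL5, RpL15, RpL35A, RpL39 and RpLP1), against 7.45% of all genes, and 1 was below (RpL23A), against 8.38%. Between the depletions 5 genes were lower in libraries labelled HP1a RNAi than in those labelled Su(var)3-9 RNAi (RpL10, RpL12, RpL15, RpL38 and RpLP1), against 5.11% of all genes, and 0 were higher, against 8.5%. Without control replicate 3, which was the highest library for 26 of the 44 genes, 11 genes were above and 4 below the 2 remaining control libraries in libraries labelled HP1a RNAi (21.0% and 15.3% of all genes). In those labelled Su(var)3-9 RNAi the counts were then 10 above and 1 below (13.4% and 14.6%).

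RpL5 (CG17489) binds the 5S ribosomal RNA together with RpL11. It had 8481, 8129 and 8323 rescaled TPM in libraries labelled HP1a RNAi, 8846, 9286 and 8345 in those labelled Su(var)3-9 RNAi, and 7574, 7871 and 7129.95 in control libraries. Both depletion groups lay above every control library and overlapped each other. The log2 differences from the control were nonetheless small, 0.14 (SE 0.13, limma adjusted p = 0.677) in libraries labelled HP1a RNAi and 0.23 (SE 0.20, adjusted p = 0.720) in those labelled Su(var)3-9 RNAi. With the deposited TPM, without rescaling, they were -0.22 and -0.036, so the direction rests on the rescaling.

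RpL15 (CG17420), which binds the large ribosomal RNA, had 4361, 4286 and 4358 in libraries labelled HP1a RNAi, 4781, 4845 and 5089 in those labelled Su(var)3-9 RNAi, and 3922, 4497 and 3981 in control libraries. Every library labelled Su(var)3-9 RNAi was above every library of the other groups, while those labelled HP1a RNAi lay inside the control range. The log2 difference from the control was 0.25 (SE 0.16, limma adjusted p = 0.644) in libraries labelled Su(var)3-9 RNAi and 0.071 (SE 0.12, adjusted p = 0.837) in those labelled HP1a RNAi, where it was 0.046 without control replicate 3. It too turned below 0 without rescaling (-0.016 and -0.30).

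RpL38 (CG18001), which in the mouse affects the translation of Hox messages, had 6086.5, 7594 and 6878 in libraries labelled HP1a RNAi, 8009.6, 8431 and 8014 in those labelled Su(var)3-9 RNAi, and 8739, 7818 and 3334 in control libraries. Its control spread came from replicate 3, which had less than any other library. The log2 difference of libraries labelled HP1a RNAi from the control was 0.16 (SE 0.36, limma adjusted p = 0.873), and without control replicate 3 it was -0.28 (SE 0.12, adjusted p = 0.326). For those labelled Su(var)3-9 RNAi it was 0.42 (SE 0.39, adjusted p = 0.741), and -0.021 without that library. The sign of both differences therefore depended on 1 library.

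**Figure D4:**
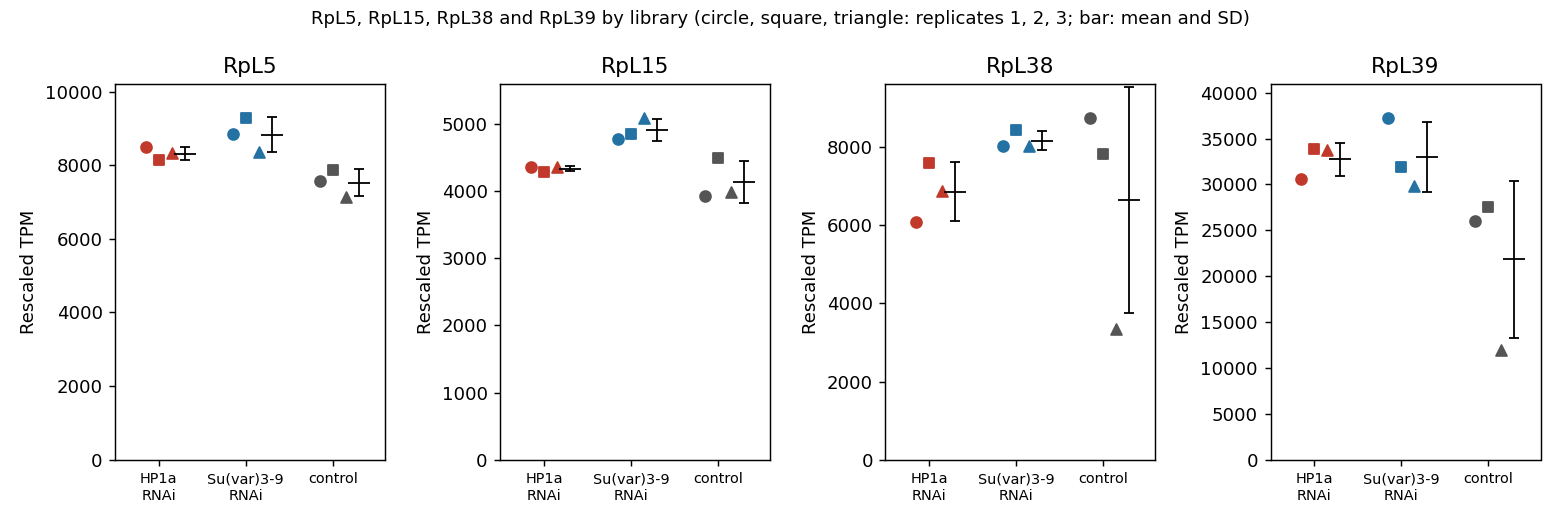
Rescaled TPM of the heterochromatic genes RpL5, RpL15 and RpL38 and of RpL39 in each library, with the mean and SD of the 3 replicates beside the points. For RpL38 and RpL39 control replicate 3 (triangle) had 3334 and 11956, below all other libraries, and for RpL5 and RpL39 the libraries of both depletion groups lie above the control.

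Set beside the euchromatic genes, the 3 heterochromatic genes had the higher median in all but 1 library. Their median log2 level exceeded the median of the 41 euchromatic genes by 0.79, 1.17 and 1.01 in libraries labelled HP1a RNAi (0.99 ± 0.19, SD, n = 3). The excess was 1.03, 1.24 and 1.32 in those labelled Su(var)3-9 RNAi (1.20 ± 0.15), and 1.19, 1.24 and -0.046 in control libraries (0.79 ± 0.73). The groups overlapped, and control replicate 3 alone was below 0. A median of 3 genes is the level of 1 gene: RpL38 in every depletion library and RpL15 in control replicate 3. Singly, RpL5 exceeded the euchromatic median by means of 1.27 (HP1a RNAi), 1.31 (Su(var)3-9 RNAi) and 1.08 (control). In the same order the means were 0.33, 0.47 and 0.21 for RpL15, and 0.99, 1.20 and 0.78 for RpL38. Between the 2 depletion groups RpL15 and RpL38 were lower in every library labelled HP1a RNAi than in any labelled Su(var)3-9 RNAi, by log2 differences of -0.18 (SE 0.085, limma adjusted p = 0.711) and -0.26 (SE 0.12, adjusted p = 0.718), neither past the threshold. With 3 genes and 1 level each, no test of the heterochromatic genes as a class was made.

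The study's own table of heterochromatic genes also holds RpL10 and RpL21, so that 5 of the 44 genes are in it. RpL10 (CG17521), needed for subunit joining in yeast, had 6526, 6302 and 6046.5 in libraries labelled HP1a RNAi, 6693, 7399.9 and 6755 in those labelled Su(var)3-9 RNAi, and 5779, 6780.2 and 7322 in control libraries. RpL21 (CG12775) had 6414, 6928 and 7050.5 in libraries labelled HP1a RNAi, 7239.7, 6734 and 6654.5 in those labelled Su(var)3-9 RNAi, and 8224, 6836 and 5089 in control libraries. Both overlapped between the depletion groups and the control. With all 5 genes, the excess over the remaining 39 was 0.99 ± 0.098 in libraries labelled HP1a RNAi, 1.06 ± 0.072 in those labelled Su(var)3-9 RNAi and 0.88 ± 0.48 in the control.

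With all libraries the largest differences from the control were in RpL39, and they did not pass the test. All 6 depletion libraries were above all control libraries, by a log2 difference of 0.68 (SE 0.35, 1.60-fold, 95% interval 0.894 to 2.86, limma adjusted p = 0.451) in those labelled HP1a RNAi and 0.68 (SE 0.45, 1.61-fold, interval 0.753 to 3.42, adjusted p = 0.646) in those labelled Su(var)3-9 RNAi. Without control replicate 3 the values were 0.29 (SE 0.13) and 0.30 (SE 0.34), smaller in size than those of RpL23A. RpL39 and RpL12 overlap on opposite strands, and the sources used here do not state whether reads were counted by strand, so the division of reads between them is uncertain.

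RpL35A (CG2099) was also higher in every depletion library, with 1559, 1541.5 and 1415 in libraries labelled HP1a RNAi, 1588, 1444 and 1582 in those labelled Su(var)3-9 RNAi, and 1169, 1339 and 1346 in control libraries. The differences from the control were 0.23 log2 units (SE 0.11, limma adjusted p = 0.403) in those labelled HP1a RNAi and 0.26 (SE 0.12, adjusted p = 0.560) in those labelled Su(var)3-9 RNAi. Control replicate 3 was inside the range of the other libraries for this gene, and without it the differences were 0.27 (SE 0.087) and 0.30 (SE 0.11).

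RpL23A (CG7977) had the largest negative differences. It had 982, 559 and 729 rescaled TPM in libraries labelled HP1a RNAi, 704, 596 and 709 in those labelled Su(var)3-9 RNAi, and 865, 1352 and 721 in control libraries. Only libraries labelled Su(var)3-9 RNAi were all below the control, and control replicate 2 was far above the other libraries. The log2 difference was -0.36 (SE 0.28, limma adjusted p = 0.614) in libraries labelled HP1a RNAi and -0.50 (SE 0.24, adjusted p = 0.562) in those labelled Su(var)3-9 RNAi. These sizes rested on single control libraries: they were -0.099 and -0.24 without control replicate 2, and -0.55 and -0.69 without control replicate 3 (adjusted p = 0.385 and 0.489). Without HP1a RNAi replicate 1 or 2 the first was -0.56 or -0.16. The annotation places 4 small nucleolar RNA genes and parts of Uhg7 and CG7974 within the bounds of RpL23A, and how reads from these were divided is not known. The other genes at the negative end were RpL6 (-0.21, SE 0.16) and RpL12 (-0.21, SE 0.15) in libraries labelled HP1a RNAi and RpL27 (-0.17, SE 0.20) and RpL4 (-0.17, SE 0.23) in those labelled Su(var)3-9 RNAi. Without control replicate 3 they were -0.061 for RpL6, -0.11 for RpL12, 0.011 for RpL27 and 0.035 for RpL4. Between the depletions the most positive differences, of libraries labelled HP1a RNAi minus those labelled Su(var)3-9 RNAi, were in RpL23A (0.14, SE 0.21, but -0.065 without HP1a RNAi replicate 1), RpL13 (0.11, SE 0.10) and RpL7 (0.10, SE 0.11), and the most negative were in RpL38, RpL15 and RpL12 (-0.17, SE 0.11).

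The stalk genes, which recruit the translation factors, were not called, and RpLP2 turned with 1 library. RpLP0 averaged 2326 ± 30.8 in libraries labelled HP1a RNAi, 2267 ± 237 in those labelled Su(var)3-9 RNAi and 2340.3 ± 98.4 in the control (SD, n = 3 each). RpLP1 averaged 6723 ± 72.5, 7048 ± 59.0 and 6689 ± 183 in the same groups. RpLP2 averaged 5244 ± 58.3 in libraries labelled HP1a RNAi, 5621 ± 759 in those labelled Su(var)3-9 RNAi and 5813 ± 1908 in the control, where replicate 3 had 8009.9 against 4571 and 4857 in the others. Their log2 differences from the control lay between -0.10 and 0.076, with standard errors of 0.10 to 0.28. Without control replicate 3 RpLP2 had differences of 0.15 (SE 0.073) in libraries labelled HP1a RNAi and 0.25 (SE 0.17) in those labelled Su(var)3-9 RNAi, while RpLP0 had 0.025 and -0.018 and RpLP1 had 0.029 and 0.098. RpLP1 was lower in every library labelled HP1a RNAi than in any labelled Su(var)3-9 RNAi, by -0.068 log2 units (SE 0.095, limma adjusted p = 0.845).

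RpL40 (CG2960), made as a fusion with ubiquitin, averaged 2962 ± 115.3 in libraries labelled HP1a RNAi, 3171 ± 350.1 in those labelled Su(var)3-9 RNAi and 3107 ± 65.0 in the control. RpL11, the partner of RpL5 on the 5S RNA, averaged 6202 ± 121, 6626 ± 568 and 6315 ± 1098 in the same groups. RpL32, known as Rp49 and widely used to normalise quantitative PCR, had 4072, 3867 and 3984 in libraries labelled HP1a RNAi, 4807, 4224 and 3892 in those labelled Su(var)3-9 RNAi, and 3906, 4120.4 and 5151 in control libraries. The groups overlapped, and the log2 differences from the control were -0.13 (SE 0.15, limma adjusted p = 0.728) in libraries labelled HP1a RNAi and -0.023 (SE 0.19, adjusted p = 0.980) in those labelled Su(var)3-9 RNAi. The 95% intervals of both lay within 0.5 log2 units of 0. Without control replicate 3, the highest library for RpL32, the differences were -0.014 and 0.097.

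The transcript table lists 89 transcripts of the 44 genes, of which 81 passed the filter of a mean of 1 deposited TPM and were tested. A single transcript is listed for 21 genes and several for 23, up to 5. The most abundant transcript was the same in the 3 groups for all 23, and in 9 of them it held over 90% of the gene's control level. No transcript was called in any comparison, where 0.221%, 0.0519% and 0.0909% of the 7704 tested transcripts were, and 5, 1 and 5 of the 81 had an unadjusted limma p under 0.05, where 11.1%, 8.06% and 6.87% of all tested transcripts had. Abundances of transcripts of a gene are estimates from shared reads.

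The transcript nearest the threshold was the minor RpLP2 transcript CG4918-RB. It had 147, 124 and 124 rescaled TPM in libraries labelled HP1a RNAi, 82.6, 58.8 and 151 in those labelled Su(var)3-9 RNAi, and 57.3, 59.2 and 74.0 in control libraries. The libraries labelled HP1a RNAi were all above the control, while those labelled Su(var)3-9 RNAi overlapped it. Its share of RpLP2 was 2.51% ± 0.252 in libraries labelled HP1a RNAi, 1.76% ± 0.947 in those labelled Su(var)3-9 RNAi and 1.13% ± 0.181 in the control. The log2 difference between libraries labelled HP1a RNAi and the control was 1.05 (SE 0.14, limma adjusted p = 0.0699), and without control replicate 3 it was 1.16 (adjusted p = 0.0395). CG4918-RA, the main transcript, had a difference of -0.12 (SE 0.23). Leaving out control replicate 1 or 2 brought other minor transcripts past the threshold, CG4651-RA of RpL13 (adjusted p = 0.0211) and CG7622-RD of RpL36 (adjusted p = 0.0104). CG4651-RA had 97.2, 41.7 and 69.0 in libraries labelled HP1a RNAi and was listed at 0 in control replicates 2 and 3, with 36.8 in control replicate 1. CG7622-RD had 69.2, 38.3 and 44.9 in libraries labelled HP1a RNAi and was listed at 0 in control replicates 1 and 3, with 18.8 in control replicate 2. In each case the library left out was the only control library above 0.

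The heterochromatic genes kept their main transcript in every group. RpL5 was mostly CG17489-RB, with 73.8% ± 1.18 of its level in libraries labelled HP1a RNAi, 72.9% ± 4.53 in those labelled Su(var)3-9 RNAi and 69.7% ± 3.18 in the control, and CG17489-RD and CG17489-RE were listed at 0 throughout. RpL15 was mostly CG17420-RA, with 88.2% ± 0.511, 89.3% ± 1.49 and 89.6% ± 2.86 in the same groups. RpL38 has 1 listed transcript.

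Control replicate 3 stood apart in transcript shares too. Of the 23 genes with several transcripts, 16 had a main transcript share outside the range of the other 8 libraries in it, and 4 were outside by over 10 percentage points. In the other libraries 1 to 8 genes were outside and none by more than 3.54 points. The 4 genes were RpL32, RpL17, RpL7A and RpL29. For RpL32, CG7939-RB held 37.6% in control replicate 3 and 89.6% to 93.0% in the other 8 libraries. In control replicate 3 CG7939-RE took 58.4%, a transcript listed at 0 in all the other libraries. For RpL17, CG3203-RB held 50.9% in this library and 82.6% to 91.7% elsewhere, and for RpL7A, CG3314-RA held 32.5% in it and 60.8% to 74.9% elsewhere. For RpL29 the main transcript, CG10071-RC, went the other way, with 82.6% in this library and 60.8% to 69.7% elsewhere. These are shares of 1 library, and the gene totals of RpL32 and RpL7A in it were also the highest of the 9.

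**Figure D5:**
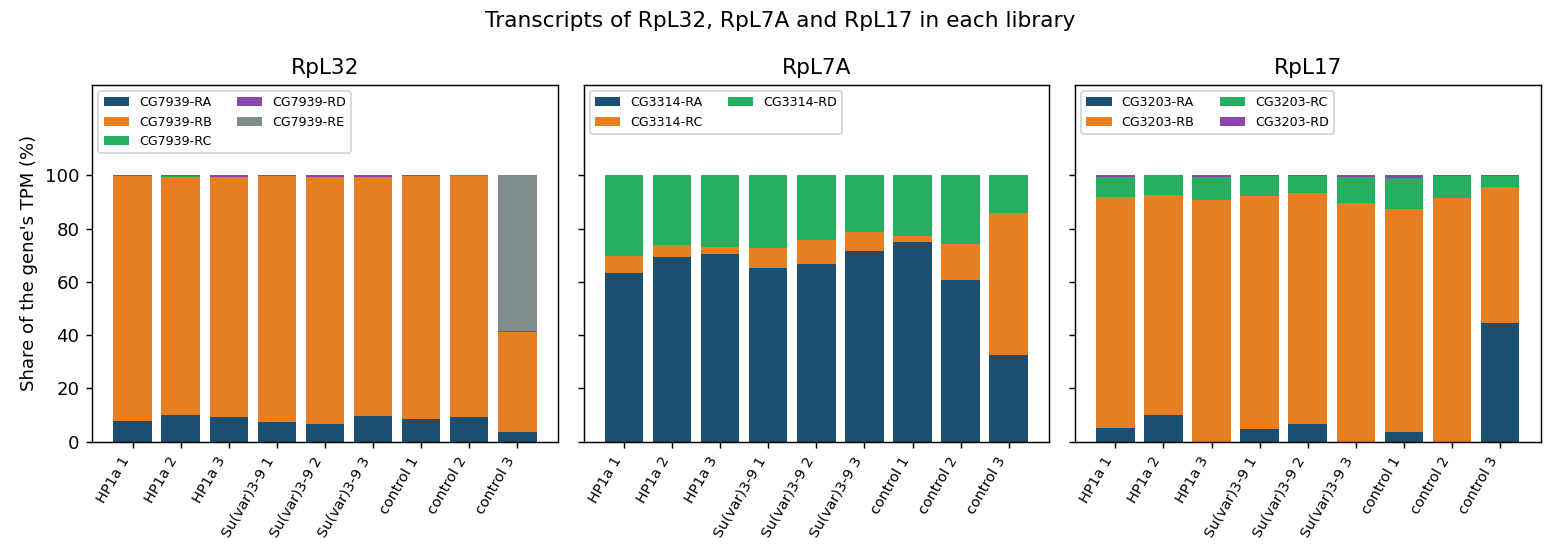
Share of the gene's rescaled TPM (%) held by each listed transcript of RpL32, RpL7A and RpL17 in the 9 libraries. The other 8 libraries look alike, and in control replicate 3 the main transcript is at 37.6% (RpL32), 32.5% (RpL7A) and 50.9% (RpL17).

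Many of these genes hold or overlap other genes, which bears on how their reads were assigned. In the BDGP6 annotation, of a later release than the genome the files use, 15 of the 44 carry a total of 32 small nucleolar RNA genes inside their bounds. These RNAs guide the modification of ribosomal RNA. Another gene overlaps 15 of the 44 on the opposite strand and 2 on the same strand. The median log2 difference from the control in libraries labelled HP1a RNAi was -0.070 over the 15 genes with a small nucleolar RNA inside and -0.013 over the 29 without. In libraries labelled Su(var)3-9 RNAi it was -0.050 over the 15 and 0.018 over the 29, and no gene of either kind was called.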

How the data were processed

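Total RNA of 9 S2 libraries (3 groups of 3, grouped by the sample labels) was analysed. Per the study's methods, the authors trimmed paired reads with Cutadapt, aligned them to dm3 with STAR and quantified with RSEM. The authors deposited TPM per gene and per transcript, with lengths, which keep no depth. The authors' comparison tables, with posterior probabilities, fold changes and condition means, were not used. The 44 genes and all gene lists were chosen with earlier results of these data known. Names came from RefSeq (Release 6 plus) and BDGP6 tables, and all 44 matched. As builds differ, no coordinates are given.

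Each library was rescaled to a total of 1000000 over CG genes. Genes and transcripts with a mean of at least 1 deposited TPM were tested on log2(value + 1), which understates changes of low genes, with limma 3.58.1 in R 4.3.3 (lmFit, eBayes with trend, two-sided, no covariates, Benjamini-Hochberg at 0.05 over all features), each comparison on its own 6 libraries. The script was tested on simulated data. Figures were drawn with matplotlib 3.10.9, from tables made with Python 3.11.15 (numpy 2.4.6, pandas 2.3.3).

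Alternatives were other scalings (deposited TPM, CG genes without ribosomal proteins, median-ratio factors, quantiles), no filter, a minimum mean of 5, a pseudocount of 0.1, CG genes only, 1 fit of 9 libraries, the replicate block, no trend, array weights and each library left out. Chosen after seeing the data were leaving out genes under 350 bases, and leaving out replicate 3 of the control and of Su(var)3-9 RNAi together. Named with values were RpL5, RpL15, RpL38, RpL10, RpL21, the 5 highest and 5 lowest genes, the stalk genes, RpL40 and the 3 largest differences each way, except 1 gene that is not reported singly here. RpL11, RpL32 and single transcripts were named after their values were seen. The lists were small subunit genes, large subunit genes outside the 44, mitochondrial large subunit genes, elongation factors with Tctp and pAbp, ribosome biogenesis and cell type markers.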

Additional observations from a re-analysis of the deposited data

How the results depend on the processing

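No large subunit gene was called under any alternative (19 for libraries labelled HP1a RNAi against the control, 20 for those labelled Su(var)3-9 RNAi against the control, 19 between the depletions), and the smallest adjusted limma p over all of them was 0.152, 0.0860 and 0.233. The calls over all genes ranged from 6 to 285, from 0 to 111 and from 1 to 30. The median difference of the 44 genes minus that of all genes ranged over the left-out libraries from -0.15 to 0.0032, from -0.058 to 0.098 and from -0.18 to -0.032. For Su(var)3-9 RNAi against the control it was 0.26 with quantile normalization and 0.19 without replicate 3 of both groups, and between the depletions -0.45 with quantile normalization. The count of called transcripts for HP1a RNAi against the control was 0 to 1 over the left-out libraries, a different transcript without each control library. CG4918-RB was called only without control replicate 3, at 1.16, among the leave-outs and alternatives run on it, whose adjusted p reached 0.398.

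For HP1a RNAi against the control, directions turned with the deposited TPM for RpL5 (-0.22), RpL15 (-0.30) and RpL38 (-0.21), with quantile normalization for RpL5 (-0.091), RpL15 (-0.022), RpL38 (-0.016) and RpL39 (-0.027), and for RpL38 with array weights (-0.075). RpL38 ranged from -0.28 to 0.42 over the left-out libraries, below 0 without control replicate 3. For Su(var)3-9 RNAi against the control they turned with the deposited TPM for RpL5 (-0.036) and RpL15 (-0.016), and for RpL38 without replicate 3 of both groups (-0.0084). RpL38 ranged from -0.021 to 0.67 over the left-out libraries, below 0 without control replicate 3. Between the depletions RpL39 turned with array weights (0.024) and ranged from -0.076 to 0.085 over the left-out libraries. None of these values passed the threshold, and the cause was not tested. The deposited TPM shifted the median of all genes to -0.27 and -0.23 log2 units against the control.

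Same-numbered deviations correlated between -0.43 and 0.13, and those of different numbers between -0.22 and 0.46. With 3 libraries per group these values cannot show whether replicate numbers pair the samples. With the replicate block 0 of the 44 genes were called, and 6, 3 and 1 of all genes. Depth is unknown from TPM, which limits any statement on low transcripts.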

Other observations

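The other genes of the translation machinery showed no call either. Of the 39 small subunit genes 36 were tested and 0 were called in any comparison, with median log2 differences from the control of -0.048 in libraries labelled HP1a RNAi and 0.0075 in those labelled Su(var)3-9 RNAi. They held 13.1% ± 0.187 of the CG TPM in libraries labelled HP1a RNAi, 13.9% ± 0.961 in those labelled Su(var)3-9 RNAi and 13.7% ± 1.49 in the control (SD, n = 3 each). Of 46 mitochondrial large subunit genes, whose products build the separate ribosome of mitochondria, 0 were called, with medians of 0.14 and 0.098 against 0.041 and -0.017 over all genes. Of the 22 genes matched by symbol to a list for ribosome biogenesis 0 were called, with medians of 0.0036 and -0.17. The match of pes to CG7228 rests on the symbol alone.

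Of the 10 large subunit genes outside the 44, 7 were tested and 0 were called. RpL41, a very short gene of 317 bases, was more abundant than any of the 44 genes but RpL39, with 22026.5 ± 893 rescaled TPM in libraries labelled HP1a RNAi, 21170.0 ± 1203 in those labelled Su(var)3-9 RNAi and 19311 ± 2834 in the control, where replicate 3 had 16137. RpL36A averaged 8359, 8223 and 8350.1 in the same groups, and RpL37-1 averaged 2033, 2136 and 2271. The paralogs RpL34a, RpL24-like, RpL7-like and RpLP0-like had log2 differences from the control between -0.30 and 0.11. RpL22-like, RpL37-2 and RpL10Aa did not pass the filter, and RpL10Aa was listed at 0 in all libraries.

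Among the 8 tested elongation factors with Tctp and pAbp, 0 were called and pAbp stood apart in size. pAbp, which encodes the protein that binds poly(A) tails, had 653, 969 and 540 rescaled TPM in libraries labelled HP1a RNAi, 427, 531 and 792 in those labelled Su(var)3-9 RNAi, and 1752, 1741 and 1720.3 in control libraries. The depletion groups lay below every control library, by log2 differences of -1.31 (SE 0.21, limma adjusted p = 0.0627) and -1.62 (SE 0.23, adjusted p = 0.118), neither past the threshold. The other 7 had differences between -0.32 and 0.10. Of the 5 tested hemocyte markers 0 were called.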
